A study of Homo sapiens with 14 samples.

Results

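A set of 7 transcription factors tied to red cell development and to leukemia, GATA1, KLF1, TAL1, LMO2, NFE2, MYB and MYC, was chosen by gene name, and no measured value entered the rule. Of these 7 genes, 5 had at least 1 transcript with structure probing scores, and together they had 18 scored transcripts. The whole series listed 20512 transcripts in any profile, of which 20111 could be given a gene name, from 6714 genes. TAL1 and MYB, which have 6 and 41 annotated transcripts, were listed in none of the 4 profiles and were not analysed here. For each of the other genes the transcript with the highest mean RPKM (mapped reads scaled to transcript length and library size) was described.

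RNA structure was probed in K562, an established human leukemia cell line with erythroid features, by icSHAPE and icLASER. In icSHAPE, NAI-N3 at 100 mM for 5 min acylates the 2′ hydroxyl of flexible nucleotides. In icLASER, NAz-N3 from a 1 M stock is activated by 10 min of UV light and marks the C8 position of purines that solvent can reach. Each reagent was applied to living cells (in vivo, 3 icSHAPE and 2 icLASER libraries) and to RNA that had been taken out of cells and folded again (in vitro, 2 libraries for each reagent). The controls were 3 icSHAPE libraries with DMSO in place of the reagent and 2 icLASER libraries made without UV, so the 14 libraries differed in reagent and condition and came from cells of 1 line. The libraries had been combined into 4 profiles, 1 for each reagent and condition, so no difference below has a replicate check and no test was made. Each profile gives a score for each nucleotide, from 0 (no enrichment of reagent over control) to 1, and the read depth behind a score is unknown.

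GATA1, KLF1 and TAL1 are regulators that drive the red cell program, and LMO2 is an adaptor without DNA binding of its own that joins GATA1 to TAL1 in a complex with LDB1. NFE2 is the leucine zipper subunit of the NF-E2 factor, which acts on globin genes and in platelet formation. MYB and MYC promote the growth of progenitors and fall as these mature, and the MYC message is known for its short life. GATA1 protein can also be made from a second AUG in the same reading frame, which gives a short form that is the only one left in the leukemia of Down syndrome.

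The sequences around the places that the results turn on are given 5′ to 3′, read from GRCh38 through the GENCODE 44 annotation, with the AUG in capitals. The first 5 are the translation starts of GATA1, KLF1, LMO2 and NFE2 together with the second in-frame AUG of GATA1. The last is the 20 nt stretch of the NFE2 5′ UTR in which the scores of both reagents were furthest below those in vitro.
GATA1 start, chrX:48791098-48791127, plus strand: cccagaggcuccAUGgaguucccuggccug
GATA1 second in-frame AUG, chrX:48791861-48791890, plus strand: uugcucaacuguAUGgaggggaucccaggg
KLF1 start, chr19:12887123-12887152, minus strand: caccagccagccAUGgccacagccgagacc
LMO2 start, chr11:33869369-33869398, minus strand: ccucccuccccaAUGuccucggccaucgaa
NFE2 start, chr12:54295231-54295260, minus strand: uggcccaguaggAUGuccccguguccuccc
NFE2 5′ UTR stretch, chr12:54295633-54295652, minus strand: cacagcaaaacagaaaaaca

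Across the series, the profiles listed 16295 transcripts for icSHAPE in vivo, 12256 for icSHAPE in vitro, 16648 for icLASER in vivo and 15853 for icLASER in vitro, with a lowest RPKM between 5.01 and 5.13. The mean score was 0.167 and 0.141 for icSHAPE in vivo and in vitro, a ratio of 1.18, and 0.151 and 0.152 for icLASER, a ratio of 0.993. Below, a direction that turned when each profile was divided by its own mean score is named as such. Of 10 markers of K562, 9 were listed, and BCR was the exception. Of 10 markers of T cells, B cells, monocytes, epithelium and fibroblasts, 8 were not listed, and LYZ (10.6 to 31.4 RPKM) and EPCAM (20.3 to 27.1 RPKM) were, and their part in the results was not tested.

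GATA1 was the most abundant of the 5 messages. The GATA1-202 transcript (ENST00000376670, chromosome X) had an RPKM of 87.8 for icSHAPE in vivo, 73.0 for icSHAPE in vitro, 99.7 for icLASER in vivo and 85.6 for icLASER in vitro. These values lay at the 81.9 to 91.2 percentiles of all genes in their profiles. KLF1, the factor that switches on adult beta globin, followed with KLF1-201 (ENST00000264834, chromosome 19) at 71.3, 53.8, 65.8 and 71.3 RPKM in the same order. MYC-206 (ENST00000621592, chromosome 8) had 79.7, 56.6, 49.1 and 50.6 RPKM. NFE2-201 (ENST00000312156, chromosome 12) had 21.2, 18.7, 25.2 and 22.5 RPKM.

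LMO2 was lowest, with LMO2-203 (ENST00000411482, chromosome 11) at 11.2 RPKM for icSHAPE in vivo, 9.55 for icLASER in vivo and 9.30 for icLASER in vitro, and no value for icSHAPE in vitro. By mean RPKM the order was GATA1 (86.6), KLF1 (65.6), MYC (59.0), NFE2 (21.9) and LMO2 (10.0). The values of GATA1 and MYC overlapped, as did those of KLF1 and MYC, whereas the highest value of NFE2 was below the lowest of the 3 above it and the highest of LMO2 was below the lowest of NFE2. Fewer cells and less RNA per cell cannot be told apart in such values.

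MYC was the member whose abundance varied most with the profile. Its RPKM in vivo was 1.62 times as high for icSHAPE as for icLASER, at the 94.0 percentile of 4612 genes whose median ratio was 0.971. Between icSHAPE in vivo and in vitro the ratio was 1.41, at the 91.5 percentile of 3898 genes with a median of 1.08. For icLASER the in vivo to in vitro ratio was 0.970, below the median of 1.11. The other members had ratios between 0.84 and 1.17 for icSHAPE over icLASER in vivo.

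Isoforms shared most of their sequence, so their RPKM values are not separate measurements. GATA1-201, with a shorter coding sequence, had 83, 67.0, 83.4 and 73.2 RPKM in the order above. The 5 NFE2 transcripts lay between 11.4 and 25.2 RPKM. MYC-205 had 73.1, 50.6, 43.5 and 48.7 RPKM, whereas MYC-201, MYC-203 and MYC-204 lay between 11.2 and 32.5. The described LMO2 transcript, LMO2-203, is annotated as subject to nonsense-mediated decay, with a coding sequence of only 168 nt, and LMO2-202, which encodes a protein, had 10.9, 9.24 and 8.49 RPKM in the 3 profiles that list it. Below, LMO2 regions are therefore those of LMO2-202, a choice made after the values were seen.

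Over whole transcripts, the icSHAPE scores of these messages differed little between cells and refolded RNA. Within each message, nearly the same number of nucleotides had the top score of 1 in each profile, with icLASER as well. Whole-transcript means are thus tied between profiles, and small differences in them do not show that the RNA changed little. The in vivo score less the in vitro score averaged 0.00813 for GATA1 (0.172 against 0.164, n = 1461 positions), 0.00939 for KLF1 (0.172 against 0.163, n = 1556), 0.0172 for MYC (0.186 against 0.169, n = 2330) and 0.0260 for NFE2 (0.188 against 0.162, n = 1622). All 4 differences turned negative once each profile was divided by its own mean. Their median was 0.0133, compared with 0.0242 over 3696 genes, and the members lay at the 19.9, 22.0, 35.8 and 54.0 percentiles. Only NFE2 was higher in vivo by 0.02 or more, and 58.3% of all genes passed that size. None was lower by as much, which 1.76% of genes were.

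For icLASER the differences were 0.0112 for GATA1 (0.195 against 0.183), 0.00286 for KLF1 (0.196 against 0.193), 0.0101 for LMO2-203 (0.158 against 0.148), 0.00833 for NFE2 (0.170 against 0.162) and 0.0108 for MYC (0.174 against 0.163). Their median was 0.0101, compared with 0.00701 over 4394 genes. No member passed 0.02 in either direction, where 22.2% of genes were higher and 9.04% lower. The directions of icLASER held when each profile was divided by its own mean, but the median over members was -0.0184 at A and G, the bases that the reagent marks, and 0 with medians over positions.

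The whole-transcript values averaged over regions whose differences were unlike. With the number of top scores nearly fixed in each transcript, a gain in a region is partly tied to losses elsewhere. The regions of a transcript are therefore not separate observations. In the 5′ UTR, the icSHAPE scores were lower in vivo than in vitro in 4 of 4 members, where 35% of 400 coding transcripts were lower and 63.8% higher. The differences were -0.139 for NFE2 (0.192 against 0.331), -0.0516 for GATA1 (0.221 against 0.273), -0.0199 for KLF1 (0.394 against 0.414) and -0.00422 for MYC (0.211 against 0.216). NFE2 lay at the 1.25 percentile, and the difference of MYC was close to 0 and stood at 0.000986 in the isoform MYC-205, where it turned negative after division by the means. In MYC-201 and MYC-203, of lower RPKM, the 5′ UTR was higher in vivo, by 0.0476 and 0.101, also after that division, so the direction in MYC depended on the isoform. The KLF1 5′ UTR has only 41 nt, of which 35 were scored.

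For icLASER the 5′ UTR scores were lower in vivo in 4 of 5 members, and 75.2% of 488 coding transcripts were lower. GATA1 fell by 0.156 (0.173 against 0.328), MYC by 0.123 (0.195 against 0.318) and NFE2 by 0.0847 (0.237 against 0.321). The difference of LMO2-202 was -0.00237, and its 5′ UTR, with a GC content of 79.8%, held scores of exactly 0 at 77.8% of its nucleotides in vivo and 76.6% in vitro. KLF1 was the 1 member that was higher in vivo, by 0.0529 (0.496 against 0.443, n = 35 positions), at the 94.1 percentile, and 24.2% of coding transcripts were higher. None of these 5′ UTR directions turned when each profile was divided by its own mean.

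In the coding sequence, the icSHAPE scores were higher in vivo in 4 of 4 members, and 85.1% of 496 coding transcripts were higher. The differences were 0.0642 for NFE2 (0.196 against 0.132), 0.0402 for MYC (0.203 against 0.163), 0.0127 for GATA1 (0.175 against 0.162) and 0.00881 for KLF1 (0.160 against 0.151), and those of GATA1 and KLF1 turned negative once each profile was divided by its own mean. NFE2 lay at the 85.1 percentile in its described transcript, and its other isoforms ranged from -0.00311 in NFE2-205 to 0.0641 in NFE2-203.

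The icLASER scores of the coding sequence were higher in vivo in 2 of 5 members, where 43.2% of 616 coding transcripts were. GATA1 (0.0146) and NFE2 (0.0145) were higher and KLF1 (-0.0188), MYC (-0.00211) and LMO2-202 (-0.0590) were lower, as were 56.8% of coding transcripts. The value of LMO2-202 (0.103 against 0.162) lay at the 10.7 percentile. In the longer coding sequence of LMO2-201 the difference was -0.0149.

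In the 3′ UTR, the icLASER scores were higher in vivo in 5 of 5 members, and 84.8% of 572 coding transcripts were higher too. MYC had the largest rise, 0.206 (0.334 against 0.128), at the 98.3 percentile. GATA1 followed with 0.128 (0.221 against 0.0934), NFE2 with 0.0852 (0.191 against 0.106), KLF1 with 0.0534 (0.166 against 0.112) and LMO2-202 with 0.0457 (0.160 against 0.115). The icSHAPE scores were higher in vivo in 3 of 4 members, where 78.2% of 455 coding transcripts were, by 0.0310 in NFE2 and by 0.0132 in both GATA1 and KLF1. The values of GATA1 and KLF1 turned negative once each profile was divided by its own mean. MYC was the 1 member lower for icSHAPE, with a difference of -0.0282 (0.104 against 0.132) at the 5.71 percentile, and 21.5% of coding transcripts were lower.

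Within cells, most members had more icSHAPE signal in the coding sequence than in the 3′ UTR and less icLASER signal. For icSHAPE in vivo the coding sequence mean was above the 3′ UTR mean in 4 of 5 members, by 0.0990 in MYC, 0.0732 in GATA1, 0.0683 in LMO2-202 and 0.0552 in NFE2, and 90.4% of 592 coding transcripts had this direction. For icLASER in vivo it was above in 1 of 5 members, where 47.5% of 701 coding transcripts were, and the other differences ran from -0.0273 in GATA1 to -0.220 in MYC. KLF1 went the opposite way with both reagents, with differences of -0.0255 for icSHAPE and 0.0328 for icLASER. The medians over members were 0.0683 for icSHAPE and -0.0408 for icLASER, compared with 0.0581 and -0.00356 over the coding transcripts. For icSHAPE in vitro the coding sequence was above in 3 of 4 members, all but KLF1, and in 83.9% of 483 coding transcripts. For icLASER in vitro it was above in 4 of 5 members, all but MYC, with a median of 0.0478, and 88.7% of 657 coding transcripts had this direction.

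The second in-frame AUG of GATA1, 249 nt downstream of the start, was among the places where both reagents gave lower scores in vivo. Its A, U and G (chrX:48791873-48791875) scored 0.372, 0.0670 and 0.154 for icSHAPE in vivo and 1.00, 0.447 and 0.264 in vitro. For icLASER they scored 0.252, 0.161 and 0.201 in vivo and 0.859, 0.279 and 1.00 in vitro. With scores placed as deposited, each of the 3 bases was thus lower in vivo with each reagent. With scores read 1 nucleotide downstream, as for base pairing below, the A takes an icSHAPE score of 1 in vivo and in vitro. Its icSHAPE fall therefore depends on the reading. For icLASER the A, U and G then take 0.732, 0.252 and 0.161 in vivo and 1.00, 0.859 and 0.279 in vitro. Each is still lower in vivo, but the falls differ in size from those above.

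Averaged over the codon with scores placed as deposited, icSHAPE scored 0.198 in vivo and 0.570 in vitro. The difference of -0.373 lay at the 3.14 percentile of the next in-frame AUGs of 446 coding transcripts. The icLASER means were 0.205 and 0.713, a difference of -0.508 at the 1.99 percentile of 552. The median difference over these transcripts was 0.0172 for icSHAPE and -0.0258 for icLASER.

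The loss was not confined to the AUG. With scores placed as deposited, the base right after it, a G, scored 0.143 in vivo and 0.968 in vitro for icLASER. That fall was larger than at any base of the AUG, while the icSHAPE scores of this G were 0.141 and 0. Averages over the flanks differed less than the codon. Over the 10 nt before the AUG, icSHAPE scored 0.610 in vivo and 0.70 in vitro, and icLASER 0.390 and 0.579. Over the 10 nt after it, icSHAPE scored 0.149 and 0.110, and icLASER 0.187 and 0.252. In vitro the stretch before the AUG was thus highly reactive to both reagents, and in vivo it stayed so for icSHAPE.

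At the GATA1 start codon itself (chrX:48791110-48791112), icSHAPE scored 0.117 in vivo and 0.0837 in vitro, and icLASER 0.266 and 0.356. The differences, 0.0333 and -0.0897, lay at the 53.5 and 40.3 percentiles of coding transcripts. The start codon therefore stood close to the middle of other messages, unlike the downstream AUG.

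The other members had start codons with icSHAPE means of 0.257 against 0.0957 (KLF1), 0.359 against 0.233 (NFE2) and 0.219 against 0.139 (MYC) in vivo and in vitro. For icLASER the means were 0.179 against 0.222 for KLF1, 0.0937 against 0.138 for MYC and 0.369 against 0.365 for LMO2-202. NFE2 had the largest change at its start for icLASER, 0.0817 against 0.428, a difference of -0.346 at the 7.59 percentile. With scores placed as deposited, most of it lay at the G of the AUG, which scored 0.147 in vivo and 1.00 in vitro. With icLASER read 1 nucleotide downstream, as for base pairing below, this G takes 0.098 and 0.152, so the fall depends on the reading.

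Against the 100 nt on each side, the start codon was lower for icSHAPE in vivo in 4 of 5 members. The differences were -0.116 in GATA1, -0.0661 in KLF1, -0.0605 in LMO2-202 and -0.0193 in MYC, whose annotated start is a CUG. NFE2 went the other way with 0.172. In this order the 5 lay at the 32.4, 46.8, 47.8, 56.4 and 82.6 percentiles of 605 coding transcripts. As 56.4% lay below the negative value of MYC, most coding transcripts were lower too. For icLASER in vivo the start codon was lower in KLF1 (-0.103), NFE2 (-0.0656) and MYC (-0.00107) and higher in LMO2-202 (0.217) and GATA1 (0.0913). Of 704 coding transcripts, 61.4% lay below the value of MYC, so most were lower here as well. The medians over members were -0.0605 and -0.00107, compared with -0.0495 and -0.0434 over the coding transcripts. With LMO2-203, the medians turned positive when the score was read 1 nucleotide downstream (0.233 and 0.0380).

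Of the next in-frame AUGs of the other members, that of KLF1 was also lower in vivo with both reagents, by a smaller amount. It differed by -0.104 for icSHAPE and -0.111 for icLASER, at the 20.9 and 30.4 percentiles. The one of NFE2 differed by 0.0230 and 0.0593, and the one of LMO2-202 by -0.03 for icLASER. MYC is annotated to start at a CUG in this transcript, and its first in-frame AUG, which begins the main MYC protein, lies 15 codons downstream. That AUG scored 0.0997 and 0.0133 for icSHAPE and 0 and 0.00867 for icLASER in vivo and in vitro. With scores placed as deposited, it was thus nearly without icLASER signal in both conditions.

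At the stop codons, with scores placed as deposited, the middle base of UGA carried most of the icLASER signal in GATA1 and KLF1. It scored 0.687 in vivo and 0.473 in vitro in GATA1, and 0.376 and 0.147 in KLF1. Over 732 coding transcripts the middle base of the stop codon had the highest mean in vivo, 0.348. The UGA of NFE2 scored 0.253 in vivo and 0.377 in vitro at this base, but in vivo its last base scored more, 0.562, against 0.237 in vitro. The stop codons of MYC (UAA) and LMO2-202 (UAG) scored 0.028 and 0 at the middle base in vivo.

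NFE2 held the largest joint loss of signal among the 4 members scored in all profiles. In the 20 nt of its 5′ UTR printed above, which lie 165 nt upstream of the start codon, icSHAPE averaged 0.294 in vivo and 0.949 in vitro and icLASER 0.277 and 0.732. In vitro, 15 of the 20 nucleotides had the top icSHAPE score of 1, and 3 did in vivo. For icLASER, 8 had it in vitro and 0 in vivo. The stretch was chosen as the one with the largest loss in both reagents, so its size is a description. The smaller of its 2 losses, -0.455, lay at the 0.976 percentile of the same quantity in 410 coding transcripts, whose median was -0.185.

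The same nucleotides in the isoform NFE2-203 averaged 0.321 and 0.92 for icSHAPE and 0.323 and 0.775 for icLASER, which is not a separate measurement because the isoforms share this sequence. NFE2-202, NFE2-204 and NFE2-205, which have other 5′ ends, had 5′ UTR differences of 0.00201, 0.0226 and 0.0136 for icSHAPE, all of which turned negative once each profile was divided by its own mean. For icLASER the 5′ UTR of NFE2-202 differed by -0.100 and that of NFE2-203 by 0.0261. The loss over the whole 5′ UTR thus depended on the isoform, and the loss in the 20 nt was present in both isoforms that hold them.

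**Figure D1:**
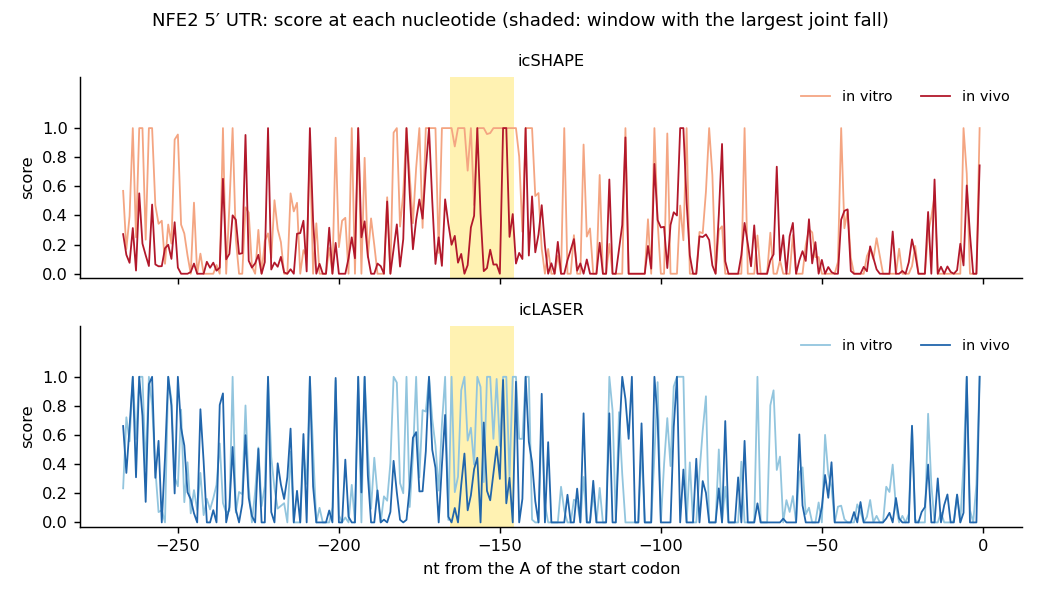
Score of each nucleotide (y axis, 0 to 1) of the NFE2-201 5′ UTR against its distance from the start codon (nt), icSHAPE above and icLASER below, with the 20 nt stretch shaded. In the stretch the in vitro line runs near the top (mean 0.949 for icSHAPE and 0.732 for icLASER) and the in vivo line lies lower (0.294 and 0.277).

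Upstream of this stretch, NFE2-201 has AUGs at positions -193 and -178, counted from the A of the start codon, both opening short frames that end before it. The first scored 0.244 and 0.303 for icSHAPE and 0.51 and 0.50 for icLASER in vivo and in vitro. The second scored 0.363 and 0.582 for icSHAPE and 0.480 and 0.520 for icLASER. Both kept their icLASER signal in vivo, in contrast with the stretch that follows them.

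In the other members the joint losses over 20 nt were smaller, and the joint gains of all 4 members were below the median of coding transcripts. The largest joint loss of GATA1 was in its 5′ UTR (chrX:48786574-48786593), with 0.267 against 0.424 for icSHAPE and 0.192 against 0.428 for icLASER. The smaller of its 2 losses, -0.157, lay at the 60.5 percentile and so was no larger than in a typical coding transcript. The largest joint gain of KLF1 lay near the end of its 3′ UTR (chr19:12884457-12884476), with 0.249 against 0.132 for icSHAPE and 0.371 against 0.157 for icLASER. The smaller of its 2 gains, 0.118, lay at the 15.9 percentile of coding transcripts, whose median was 0.161. These stretches are shown because they mark where each message changed most with both reagents, and their values are a description for the same reason as in NFE2.
GATA1 joint loss, 5′ UTR, plus strand: gacacccccugggaucacac
KLF1 joint gain, 3′ UTR, minus strand: cugauauuaacugucaaugg

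Of all overlapping 20 nt windows, both reagents were higher in vivo in 43.4% for NFE2, 32.2% for GATA1, 32.2% for KLF1 and 28.7% for MYC. Both were lower in 14.7%, 19.8%, 26% and 16.4% in the same order. The correlation between the differences of the reagents over these windows, which share nucleotides, was 0.354 for NFE2 (n = 1603), 0.0932 for GATA1 (n = 1442), 0.0692 for KLF1 (n = 1537) and -0.214 for MYC (n = 2311). MYC was the only one of the 4 in which the differences of the reagents had a negative correlation. These shares and correlations were not taken over other coding transcripts. They were also not repeated with each profile divided by its own mean. The mean icSHAPE score was 1.18 times as high in vivo, which by itself raises the share counted as higher.

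The 3′ UTR of MYC set it apart from the other members in base content and in icLASER signal. Its 476 nt had a GC content of 27.3%, at the 3.25 percentile of 862 coding transcripts with a median of 41.3%, and the other members lay between 42.9% and 55.0%. Of its 446 scored nucleotides, 12.6% had the top icLASER score of 1 in vivo and 1.57% in vitro. The in vivo share was at the 98.0 percentile of coding transcripts, whose median was 3.99%. Over the whole MYC transcript the number of top icLASER scores was the same in vivo and in vitro. The higher share in the 3′ UTR is thus tied to the 5′ UTR, which held 36 top scores in vivo and 88 in vitro.

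The icLASER signal was not even along the MYC 3′ UTR. Over the first 160 nt, icLASER averaged 0.117 in vivo and 0.0741 in vitro, and over the remaining 286 scored nucleotides it averaged 0.455 and 0.158. In that later part, icSHAPE went the other way, with 0.0651 in vivo and 0.14 in vitro. The icLASER scores there in vivo were high at each base, 0.541 at G, 0.498 at U, 0.408 at A and 0.362 at C, whereas in vitro they were 0.428 at G and between 0.0861 and 0.172 at the others. U and C are not purines, so with scores placed as deposited the rise at them is not a reading of purine C8. With scores read 1 nucleotide downstream, as for base pairing below, a score at U or C can belong to a purine that follows. The cause of the rise was not tested. In the shorter 3′ UTR of MYC-205 the differences had the same directions, 0.123 for icLASER and -0.0226 for icSHAPE.

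AUUUA, the core of AU-rich elements that mark short-lived messages, occurred 4 times in the MYC 3′ UTR, and 53.6% of 862 3′ UTRs held at least 1 match on the message strand. The match nearest the 3′ end averaged 1.00 for icLASER in vivo and 0.201 in vitro, and 0.00320 and 0.234 for icSHAPE. Over the matches of coding transcripts the means were 0.160 and 0.155 for icLASER (n = 988) and 0.245 and 0.234 for icSHAPE (n = 776). Most bases of AUUUA are U, which is not a purine, so such icLASER means are not readings of purines alone. The first match scored at or near 0 in all profiles, with the highest mean 0.0108. AAUAAA, the polyadenylation signal, occurred in 2 places, which averaged 0.501 and 0.567 for icLASER in vivo, against 0.227 and 0.0278 in vitro, and 70.9% of 3′ UTRs held it. Over 392 matches of coding transcripts the means were 0.215 in vivo and 0.170 in vitro. Both places, and the AUUUA nearest the 3′ end, lie in the later part, where icLASER averaged 0.455 in vivo. Their values are thus not particular to the motifs. The 7 nt complements of bases 2 to 8 of miR-34a-5p and let-7a-5p were not found in these 476 nt.

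The last 83 codons of MYC, known as the coding region determinant of its stability, changed in one direction with both reagents. For icSHAPE this stretch averaged 0.174 in vivo and 0.106 in vitro, a difference of 0.0680, while the rest of the coding sequence differed by 0.0342. For icLASER it averaged 0.146 and 0.0905, a difference of 0.0552, and the rest differed by -0.0150. The stretch had a GC content of 49.0%, against 61.0% in the rest. The last codons of other coding transcripts were not compared, so these differences may not be particular to MYC. The 20 nt with the largest joint gain of the whole transcript lay inside it, with 0.242 against 0.0700 for icSHAPE and 0.161 against 0.0342 for icLASER. The smaller of these gains, 0.127, lay at the 22.2 percentile of coding transcripts, below their median of 0.161.

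The stretches that encode zinc fingers did not move as a group. In GATA1, the first finger (codons 204 to 228), which binds its partners, differed by -0.0626 for icLASER, and the second (codons 258 to 282), which binds GATA sites in DNA, by 0.0622, and for icSHAPE the differences were -0.000387 and 0.0218. In KLF1, the 3 fingers that bind DNA averaged 0.123 in vivo and 0.112 in vitro for icSHAPE, both lower than the 0.168 and 0.161 of the rest of the coding sequence, and the difference between cells and refolded RNA turned negative once each profile was divided by its own mean. Their icLASER means were 0.137 and 0.124, against 0.213 and 0.239 in the rest. In LMO2-202 the LIM finger motif at codons 94 to 119 averaged 0.104 in vivo and 0.228 in vitro for icLASER, whereas the one at codons 30 to 54 averaged 0.0818 and 0.0815.

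The 3′ UTR of LMO2 holds 1 match to the seed of miR-223-3p, a myeloid microRNA known to target this message. The mature sequence from RefSeq (GRCh38.p14), with its seed of bases 2 to 8 in capitals, shows which letters were searched.
miR-223-3p: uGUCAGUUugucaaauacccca
The 7 nt of the match averaged 0.364 for icSHAPE in vivo, 0.175 for icLASER in vivo and 0.138 for icLASER in vitro. Of the 2 AUUUA matches in this 3′ UTR, the one nearer the coding sequence averaged 0.448 for icSHAPE in vivo and 0.239 and 0.221 for icLASER, and the other 0.261, 0.121 and 0.0860. The AAUAAA 175 nt before the end of KLF1 averaged 0.588 and 0.618 for icSHAPE and 0.232 and 0.0797 for icLASER in vivo and in vitro.

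Along the transcripts, the in vivo and in vitro patterns of GATA1 and KLF1 were alike. Pearson's r across positions for icSHAPE was 0.747 for GATA1, 0.720 for KLF1, 0.636 for MYC and 0.516 for NFE2, with a median of 0.678 compared with 0.50 over 3696 genes. For icLASER it was 0.719, 0.746, 0.588 and 0.665 in that order and 0.494 for LMO2-203, with a median of 0.665 compared with 0.571 over 4394 genes. NFE2 was thus lowest with icSHAPE and LMO2 with icLASER. These positions share libraries, depth and base composition, and LMO2-203, with the lowest RPKM, had the largest share of icLASER scores at 0, 51.6% in vivo and 51.9% in vitro.

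A nucleotide scoring 0.5 or more was taken as reactive. Nucleotides reactive to both reagents in vivo were 3.85 times as frequent in GATA1 as the product of the separate shares gives, 3.33 in KLF1, 2.89 in NFE2, 2.47 in MYC and 2.22 in LMO2-203, with a median of 2.89 compared with 3.11 over 4417 genes. In vitro the ratio was 3.28 in GATA1, 2.97 in KLF1, 3.75 in NFE2 and 3.14 in MYC, with a median of 3.21 compared with 3.36. GATA1 had the highest ratio in vivo and NFE2 in vitro. With only icSHAPE read 1 nucleotide downstream and icLASER as deposited, the medians fell to 0.688 in vivo and 1.56 in vitro. The in vivo value is under the 1 that independent shares give. For base pairing below both reagents were moved, which keeps the same scores side by side.

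The icLASER scores were highest at G and lowest at C. In NFE2 they averaged 0.342 for G, 0.154 for A, 0.110 for U and 0.0641 for C in vivo, and 0.307, 0.186, 0.0940 and 0.0511 in vitro. In LMO2-203 the bases had 0.250, 0.157, 0.127 and 0.0869 in vivo in that order. For icSHAPE, scores depended on the base after the scored nucleotide, with means of 0.350 before A and 0.286 before U but 0.0862 before C and 0.0727 before G in NFE2 in vivo. The icLASER scores depended on the next base too, with 0.293 before A, 0.177 before U and 0.0765 before C in NFE2 in vivo. In LMO2-203 in vivo they were also highest before A and lowest before C. These means do not settle whether an icLASER score belongs to its own base or the next. By the scored base, GATA1, KLF1 and MYC also had icLASER highest at G and lowest at C. Their positions on the genome were set with base preferences, so for them this is no separate observation.

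Within codons, with scores placed as deposited, the second base had the lowest mean in each member and profile but 1. With scores of either reagent read 1 nucleotide downstream, as for base pairing below, the scores given here to the second base belong to the third. In MYC, icSHAPE in vivo averaged 0.260, 0.157 and 0.193 over the bases of the codon, and icLASER in vivo 0.149, 0.0811 and 0.112. Over the coding transcripts the medians were 0.231, 0.167 and 0.189 for icSHAPE in vivo. The exception was LMO2-202 with icSHAPE in vivo, where the third base was lowest, at 0.175.

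Base pairing predicted from sequence alone was closest to the icSHAPE scores. With scores read 1 nucleotide downstream, the correlation of the icSHAPE score in vivo with the predicted chance of being unpaired was 0.406 for GATA1, 0.398 for KLF1, 0.329 for NFE2, 0.290 for MYC and 0.216 for LMO2-203, and the median of 95 coding transcripts was 0.228. For icLASER in vivo it was between 0.0791 and 0.147. In GATA1, icSHAPE averaged 0.344 at 272 nucleotides predicted to be unpaired and 0.0570 at 424 predicted to be paired.

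Of 23 partners and related regulators, 9 were listed in any profile and 5 in all 4, and LYL1 and LDB1 had the highest RPKM. Their icSHAPE difference had a median of 0.0345 (n = 6), and 5 of 6 were higher in vivo by 0.02 or more, beside the 58.3% of all genes. After division by the means 5 of 6 stayed above 0, but no share of all genes was taken on that scale. The icLASER median was 4.09e-05 (n = 7). LDB1, the scaffold that LMO2 binds, differed by 0.0452 for icSHAPE and 4.09e-05 for icLASER, and LYL1, the relative of TAL1, by 0.0117, which turned negative after that division, and 0.0170. GATA2, which GATA1 replaces as red cells mature, had 11.8, 11.0, 17.9 and 16.5 RPKM and differences of 0.0311 and -0.00123.

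Of 19 target genes, most of them of heme synthesis and the red cell membrane, 11 were listed in any profile and 4 in all 4. The icSHAPE median was 0.0229 (n = 4), compared with 0.0242 over all genes. Of the 4, 2 were higher in vivo by 0.02 or more, beside 58.3% of all genes. For icLASER 1 of 5 was higher and 1 lower by that size, beside 22.2% and 9.04% of all genes. One of the targets, BCL2L1, encodes a protein that blocks cell death, and it differed by 0.0299 for icSHAPE and -0.0285 for icLASER. GYPC, which encodes a glycoprotein of the red cell membrane, had the highest RPKM, and it differed by 0.00580 for icSHAPE, which turned negative after division by the means, and by 0.0387 for icLASER. After that division the icSHAPE median of the targets was -0.0521 in units of the mean score, and no median over all genes was taken on that scale.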

How the data were processed

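RNA was enriched for poly-A, and reads were aligned by the authors to GRCh38 transcripts of Ensembl release 88. The processing notes name Trimmomatic and Bowtie2, with versions not given in the sources used here. The authors ran the icSHAPE pipeline with its last coverage filters set to 0 and pooled replicates and controls into the 4 deposited profiles. Each holds the RPKM that the authors computed for a transcript and, for each nucleotide, the deposited enrichment score. The first 6 and last 30 nt carry no score, and 16 values outside 0 to 1 were left out, none in a member.

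Genes were named with GENCODE 44. GATA1-202, KLF1-201 and MYC-206 differ in length from that annotation and were placed where base preferences matched best, a procedure that placed 89 of 89 transcripts of known position. Differences needed at least 100 positions scored in both profiles, and regions at least 30. The background was 1 transcript per gene, or 882 coding transcripts for regions, fewer where a region was unscored. Zinc fingers were found by pattern in RefSeq proteins, and motifs were searched on the message strand. Pairing came from RNAplfold 2.7.2 (window 150, span 120). Python 3.11.15, numpy 2.4.6, scipy 1.17.1 and matplotlib 3.10.9 were used, and the summaries were tested on simulated data.

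The members, lists and alternatives were chosen with earlier results of these data known. By rule all members were named, with their regions, start, stop and other AUG codons, fingers, the MYC stretch, 3′ UTR motifs and the 20 nt stretches of largest joint change, and from the lists of partners and targets the 2 genes of highest RPKM. A target gene is not reported here. GATA2, and LMO2-202 in place of LMO2-203, were chosen after values were seen.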

Additional observations from a re-analysis of the deposited data

Results flagged for a closer look

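In 4 places the reagents went opposite ways between cells and refolded RNA, and the difference between them was not tested. In the KLF1 5′ UTR the icLASER difference exceeded the icSHAPE difference by 0.0728. In the KLF1 coding sequence the icLASER difference less the icSHAPE difference was -0.0276, but the icSHAPE value turned negative when each profile was divided by its own mean. In the MYC coding sequence it was -0.0423. In the MYC 3′ UTR it was 0.234, the largest of the 4.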

How the results depend on the processing

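Of 58 alternatives, 33 left the value the same, 18 moved it and 7 turned its direction. A value was the same if it stayed within the spread between members or, for a count, if it was unchanged. That spread is between genes and is not replicate error. The in vivo overlap ratio of 0.688, below the 1 of independent shares, is among those that moved. No paired analysis was possible because each profile pools its replicates, and for the same reason no replicate was left out. The causes were not tested.

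The icSHAPE median difference of 0.0133 became 0.001 with medians over positions, -0.0996 with each profile divided by its own mean, 0.0241 at A and G and 0.0265 in the coding sequence. The icLASER median of 0.0101 became 0, 0.00639 with the next transcript of each gene, -0.0184 at A and G and -0.00211 in the coding sequence. The icSHAPE count of 1 became 2 at a size of 0.01 and 0 at 0.05, after division by the mean and with the next transcripts, and the icLASER count of 0 became 3 at 0.01. Spearman's rho was 0.541 for icSHAPE and 0.498 for icLASER. The overlap ratio became 2.12 in vivo and 2.46 in vitro with reactive at 0.3, 4.18 and 4.26 at 0.8, and 0.688 and 1.56 with only icSHAPE read 1 nucleotide downstream. With LMO2-203 in place of LMO2-202, the coding sequence minus 3′ UTR median was 0.0552 for icSHAPE, and for icLASER it was 0.0299 in vitro. The start codon median, -0.0661 for icSHAPE with LMO2-203, became 0.233 for icSHAPE read downstream, and for icLASER 0.0380 read downstream and 0.0769 in vitro. LMO2-202 in place of LMO2-203, and the AUG in place of the CUG of MYC, were alternatives chosen after seeing the data, and neither turned a direction. Depth is unknown, so no value carries a counting interval.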
